A study of Mus musculus with 5 samples.

Results

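The genes described here encode the nuclear part of respiratory complex I, the NADH:ubiquinone oxidoreductase of the inner mitochondrial membrane. Members were taken by name from a table of 24046 gene symbols, as every symbol that starts with Ndufa, Ndufb, Ndufc, Ndufs or Ndufv, which gave 45 genes. Of these, 38 are listed as subunits (14 Ndufa, 1 Ndufab, 10 Ndufb, 2 Ndufc, 8 Ndufs and 3 Ndufv genes) and 7 are Ndufaf genes, which encode assembly factors. The rule used names and no measured value. The 45 genes lie on 16 chromosomes, so they are not a cluster of neighbouring genes. A pair of them, Ndufa1 and Ndufb11, are on the X chromosome.

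Complex I takes electrons from NADH, passes them along iron-sulfur clusters to ubiquinone and pumps protons across the inner membrane. Its hydrophilic arm is built from an N module, which oxidizes NADH, and a Q module, which reduces ubiquinone, while its membrane arm pumps protons. The core of the hydrophilic arm is nuclear-encoded, the core of the membrane arm is encoded by mitochondrial DNA (the mt-Nd genes, not analysed here), and a large set of accessory subunits surrounds both. Hematopoietic stem cells (HSCs) are known for relying on glycolysis while quiescent and for raising mitochondrial respiration as they leave quiescence.

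Bulk RNA sequencing compared HSCs that had lost the RNA-binding protein SYNCRIP with HSCs that had kept it, in 5 libraries. All donor marrow was homozygous for a floxed Syncrip allele. It lacked the Mx1-Cre transgene in 3 libraries (WT 1, WT 2 and WT 3) and carried it in 2 libraries (KO 2 and KO 3). The marrow had been transplanted into CD45.1 congenic recipients, and both groups received polyinosinic:polycytidylic acid (pIpC), an interferon inducer that switches on the Mx1 promoter. Mx1-driven Cre is active in every interferon-responsive cell and is not particular to HSCs. Cells were sorted 9 weeks after transplantation and 3 weeks after pIpC as CD45.2+, Lin-, Sca1+, cKit+, CD150+ and CD48-, so that blood cells left from the host were gated out by their CD45 allele. RNA was amplified with a SMART-Seq kit. The labels do not say whether a library is 1 mouse or a pool, and p-values therefore measure only the spread between these libraries. In such bulk samples, fewer cells of a type and less RNA per cell cannot be told apart.

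The libraries held 12539599 reads (KO 3) to 22779536 reads (WT 3) on genes, the KO libraries being the shallowest. Each of the 44 members that passed the filter on low values had at least 37 reads in every library, and that lowest count was Ndufb4 in KO 3. Intervals and floors from reads cover counting error only. The HSC marker genes Kit, Ly6a, Slamf1, Procr, Mecom, Hlf and Fgd5 were detected in all 5 libraries, and 5 of these 7 (Slamf1, Procr, Mecom, Hlf and Fgd5) were highest in KO 3. The 4 megakaryocyte genes took 0.0932% of reads in KO 3 against 0.0218% to 0.0403% elsewhere, and all 4 were highest there. The 7 neutrophil genes (among them Mpo, Elane, Ltf and Ngp) were detected in every library and took 4.90% to 6.71% of reads in WT 1, WT 2, WT 3 and KO 2, and 2.36% in KO 3. Adipocyte marker genes were highest in KO 2. The 9 adipocyte genes took 0.0910% of its reads against 0.000782% to 0.00323% in the other libraries, 8 of them were highest there, and 1 (Lep) was at 0. The 9 brown adipocyte genes took 0.0647% of reads in KO 2 against 0.000566% to 0.00144% elsewhere, and 8 of them were highest there. Ucp1, which defines brown fat, had a normalized count of 5622 in KO 2 and 0 in the other 4 libraries. The 8 erythroid genes took 0.0904% of reads in KO 2 against 0.0504% to 0.0715% elsewhere, and 5 of them were highest there. Adipocytes lack CD45.2, on which the cells were gated, and how adipocyte transcripts came to be in KO 2 was not tested. Brown fat is rich in mitochondria, and the part of the adipocyte and erythroid genes in the complex I values of KO 2 was not tested. Values from KO 3, in which 6 of 9 adipocyte and 5 of 9 brown adipocyte genes were at 0, are therefore given apart below. However, that library differed in the HSC, megakaryocyte and neutrophil genes, whose part in its complex I values was not tested either. The 5 skeletal muscle genes took 0.00180% of reads in KO 3 against 0.000869% to 0.00135% elsewhere, with 4 of them highest there, and their part was not tested.

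Values of single genes are normalized counts, given for WT 1, WT 2 and WT 3 and then for KO 2 and KO 3, and fold changes are KO over WT on the log2(normalized count + 1) scale, ± SE. Syncrip, the targeted gene on chromosome 9 (88447009 to 88482574, minus strand, GRCm38), had normalized counts of 1944, 1440 and 1794 (WT) and 294 and 343 (KO). Both KO values lay far below all WT values (log2 fold change -2.43 ± 0.22, limma adjusted p = 0.0352). It was the only gene of 13661 that limma called at an adjusted p under 0.05 (0.00732%), and without WT 1, WT 2 or WT 3 its log2 fold change was -2.34, -2.55 or -2.39 and limma's adjusted p was no longer under 0.05, while DESeq2 called it with any 1 library left out. limma's adjusted p for it was also not under 0.05 with no filter, with array weights, by limma-voom, or once a trend on length and GC content of transcripts was taken out, where its log2 fold change was -1.44.

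Most complex I subunit genes had higher normalized counts in the KO libraries than in the WT libraries, although no single subunit passed limma's adjusted test. Of 38 subunit genes, 37 were tested. The median log2 fold change of KO over WT was 0.53 on the log2(normalized count + 1) scale, against 0.02 for all genes tested, with 31 subunits above 0 and 6 below. The median was 0.29 once a trend on GC content and length, described below, was taken out, and 0.34 without KO 2. The highest were Ndufab1 (1.13), the mitochondrial acyl carrier protein, and Ndufs7 (0.93), a subunit of the ubiquinone-binding site, and the lowest was Ndufs1 (-0.87), the largest subunit of the N module. The 7 assembly factor genes had no common direction, with a median of -0.25 and 3 above 0, and that median was -0.07 without WT 1, -0.40 without WT 2 and -0.06 without KO 3, and above 0, at 0.021, once a trend on GC content and length, described below, was taken out (0.17 with the longest transcripts). All 38 subunit genes together took 0.382%, 0.294% and 0.338% of reads in the WT libraries, and 0.515% and 0.400% in KO 2 and KO 3. Both KO shares were thus above every WT share, though KO 3 stood only a little above WT 1. With adipocyte marker genes left out of the total, the KO 2 share was 0.516%. Without Ndufa4, which belongs to complex IV, and its relative Ndufa4l2, the WT shares were 0.362%, 0.283% and 0.324% and the KO shares 0.494% and 0.391%.

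**Figure D1:**
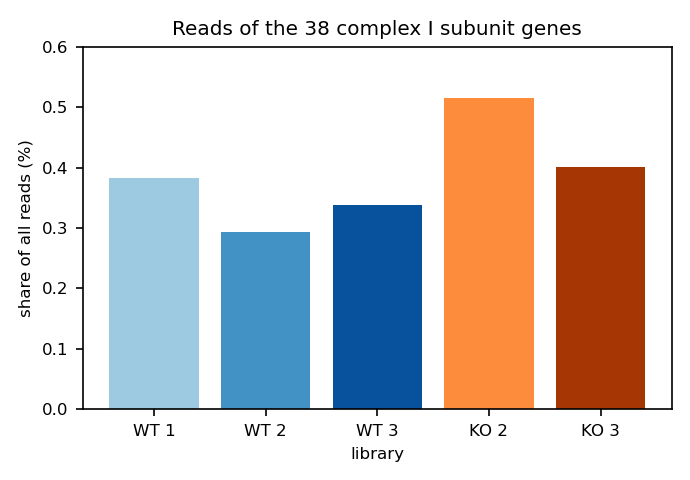
Share of all reads taken by the 38 complex I subunit genes, in percent, as 1 bar for each HSC library (WT in blue, KO in orange and brown). KO 2 stands highest at 0.515%, and KO 3 at 0.400% lies next to WT 1 at 0.382%.

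By limma with Benjamini-Hochberg adjustment over all 13661 genes, 0 of 37 subunits were called, with a smallest adjusted p of 0.0815. At an unadjusted p under 0.05 there were 17 subunits higher in KO (13.3% of all genes tested were) and 1 lower (14.5% of all genes were). The quasi-likelihood test of edgeR, run on recovered reads, also called 0 (0.0146% of all genes) and had 17 at an unadjusted p under 0.05 (27.2% of all genes). DESeq2 on the same reads called 13 of the 38 subunit genes higher, where it called 9.02% of all genes higher, and 0 lower, where it called 9.25% of all genes lower. Among them were the core subunits Ndufs7, Ndufs8 and Ndufv1, the accessory subunits Ndufa2, Ndufa6, Ndufa8, Ndufa12, Ndufa13, Ndufb2, Ndufc1 and Ndufs6, and Ndufab1. Both KO values lay above all WT values for 21 of 37 subunits (23.9% of all genes) and below all WT values for 1 (23.2% of all genes). Only Ndufab1 reached a 2-fold difference.

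The DESeq2 calls depended on single libraries, in fits added after the data were seen. Without KO 2, the library with high adipocyte marker genes, DESeq2 called 9 subunits higher, all of them among the 13, and called Ndufa9, Ndufb3, Ndufs1 and Ndufs4 lower. Without KO 3 it called 8 higher, 7 of them among the 13, and 0 lower. Without WT 1 it called 8 of the 13, without WT 2 it called 5, and without WT 3 it called only Ndufab1 and Ndufs7. Ndufs7 was the only subunit called in all of these fits. In the fits without a KO library the remaining KO library is alone in its group, and its spread is assumed to be that of the WT group. Of all genes, DESeq2 called 30.5% without KO 2, 3.11% without KO 3, and 6.73%, 9.40% and 2.79% without WT 1, WT 2 and WT 3.

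Sequence before the start of some members is shown because these genes share a pathway and are spread over the genome. Nuclear genes for respiratory proteins are known targets of NRF1, of ETS factors such as GABPA, of YY1 and of SP factors, and their short motifs were searched on both strands in the 250 bases before the start that RefSeq gives (GCGCATGC for NRF1, CCGGAAG for ETS factors, AAGATGGC for YY1 and GGGCGG for SP factors). RefSeq windows (GRCm38.p6) matched 39 of the 45 members. RefSeq and GENCODE place many starts differently, so that this window lay outside the GENCODE span of the gene for 19 members, partly inside it for 16 and wholly inside it for 4, among them Ndufs7, Ndufa12 and Ndufa13. Only windows outside the span are shown. Capitals mark a match of any of these motifs, and matches can overlap. Shown are Ndufb2 and Ndufs8, subunits called by DESeq2, Ndufa11 with an NRF1 match, Ndufb6 with an ETS match, and Ndufaf3 and Ndufaf4, the assembly factors with the highest and lowest fold change.
Ndufb2 (chr6:39592315-39592564, plus strand): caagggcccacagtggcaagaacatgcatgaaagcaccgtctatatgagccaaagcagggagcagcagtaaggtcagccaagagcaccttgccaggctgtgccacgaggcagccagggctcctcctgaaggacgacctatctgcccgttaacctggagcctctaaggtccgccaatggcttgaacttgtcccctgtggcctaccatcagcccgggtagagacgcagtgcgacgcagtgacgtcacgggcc
Ndufs8 (chr19:3912775-3913024, minus strand): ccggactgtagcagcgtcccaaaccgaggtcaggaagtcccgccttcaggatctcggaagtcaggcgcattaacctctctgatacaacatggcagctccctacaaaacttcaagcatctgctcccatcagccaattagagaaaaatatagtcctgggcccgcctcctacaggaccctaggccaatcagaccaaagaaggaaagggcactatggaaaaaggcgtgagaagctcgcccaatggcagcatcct
Ndufa11 (chr17:56717512-56717761, plus strand): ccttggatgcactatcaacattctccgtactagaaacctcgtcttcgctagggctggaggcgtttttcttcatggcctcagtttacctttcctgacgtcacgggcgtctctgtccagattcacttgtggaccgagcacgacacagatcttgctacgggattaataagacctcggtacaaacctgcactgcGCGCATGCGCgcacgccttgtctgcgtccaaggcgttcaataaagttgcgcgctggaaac
Ndufb6 (chr4:40279422-40279671, minus strand): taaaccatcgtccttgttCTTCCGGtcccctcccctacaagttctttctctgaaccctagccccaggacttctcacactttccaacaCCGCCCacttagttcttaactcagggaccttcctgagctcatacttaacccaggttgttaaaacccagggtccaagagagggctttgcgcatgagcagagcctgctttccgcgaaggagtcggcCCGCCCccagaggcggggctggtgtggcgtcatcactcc
Ndufaf3 (chr9:108567437-108567686, minus strand): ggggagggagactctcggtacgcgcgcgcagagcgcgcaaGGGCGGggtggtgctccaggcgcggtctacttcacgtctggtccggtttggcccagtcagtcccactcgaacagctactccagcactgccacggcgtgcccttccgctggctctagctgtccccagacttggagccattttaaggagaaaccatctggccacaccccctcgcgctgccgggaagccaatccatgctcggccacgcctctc
Ndufaf4 (chr4:24897833-24898082, plus strand): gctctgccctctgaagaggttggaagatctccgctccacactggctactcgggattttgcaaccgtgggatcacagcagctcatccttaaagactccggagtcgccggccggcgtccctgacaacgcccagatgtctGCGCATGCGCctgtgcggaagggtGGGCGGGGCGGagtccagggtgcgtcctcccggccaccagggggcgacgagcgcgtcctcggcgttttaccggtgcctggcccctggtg
The NRF1 motif was in 3 of 33 subunit windows (Ndufa6, Ndufa8 and Ndufa11; 9.09%), against 2.56% of 27025 windows of all genes and 4.95% of 10115 windows of tested genes. The ETS motif was also in 3 (Ndufb6, Ndufb7 and Ndufs3; 9.09%), against 7.83% of all and 15.2% of tested windows. The SP motif was in 14 (42.4%), against 35.4% of all and 62.5% of tested windows. The YY1 motif was in 0 of 33, against 1.83% of all and 2.40% of tested windows. Among 6 assembly factor windows, that of Ndufaf4 held the NRF1 motif, that of Ndufaf1 the ETS motif, 4 held the SP motif and 0 the YY1 motif. A match is a run of letters, not a measured binding site.

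Genes of the nuclear-encoded core of the Q module had higher values in KO 2 and, apart from Ndufs3, in KO 3. However, with the length and GC trend described below removed, the log2 fold changes were 0.21 for Ndufs7, 0.21 for Ndufs8 (0.42 with the longest transcripts) and -0.048 for Ndufs3. The core of the Q module carries the iron-sulfur clusters that end the electron path and the pocket for ubiquinone. Ndufs7 (chromosome 10, 80249121 to 80256794, plus strand), which holds the last iron-sulfur cluster, had normalized counts of 2948, 2788 and 3096 (WT) and 5365 and 5893 (KO). The groups were far apart and KO 3 was the highest library (log2 fold change 0.93 ± 0.16, limma adjusted p = 0.0815; DESeq2 adjusted p = 1.82e-05). Ndufs8, another iron-sulfur subunit, had normalized counts of 2610, 2412 and 2555 (WT) and 4408 and 3938 (KO). Again the WT libraries lay close together and both KO libraries above them (log2 fold change 0.72 ± 0.16, limma adjusted p = 0.0815; DESeq2 adjusted p = 0.00154). Ndufs3, which enters the enzyme early in assembly, had normalized counts of 1180, 956 and 1142 (WT) and 1497 and 995 (KO). Here only KO 2 was above the WT range and KO 3 lay within it (log2 fold change 0.17 ± 0.23, limma adjusted p = 0.666).

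The 3 core genes of the N module went separate ways. Ndufv1 binds NADH and the flavin that takes its electrons, and had normalized counts of 4025, 4046 and 4421 (WT) and 6563 and 6164 (KO). Both KO values were above all WT values (log2 fold change 0.61 ± 0.16, limma adjusted p = 0.0830; DESeq2 adjusted p = 0.00552). Ndufv2, an iron-sulfur partner of Ndufv1, had normalized counts of 3331, 2519 and 3072 (WT) and 3850 and 2946 (KO). KO 2 was above the WT range and KO 3 within it (log2 fold change 0.19 ± 0.20, limma adjusted p = 0.560). Ndufs1 (chromosome 1, 63143596 to 63176833, minus strand), which carries several iron-sulfur clusters, had normalized counts of 3843, 3139 and 3665 (WT) and 2953 and 1271 (KO). It was the only subunit with both KO values below all WT values, by a little in KO 2 and by far in KO 3 (log2 fold change -0.87 ± 0.32, limma adjusted p = 0.130; DESeq2 adjusted p = 0.102). Within a library the ratio of Ndufs1 to Ndufv1 does not depend on scaling, and this pair was chosen after its values were seen. The ratio of their normalized counts, which is not a ratio of molecules, was 0.955, 0.776 and 0.829 in the WT libraries, and 0.450 and 0.206 in KO 2 and KO 3. The KO ratios lay well below every WT ratio and differed from each other more than the WT ratios did. The GC contents of Ndufs1 and Ndufv1 were 46.6% and 56.7%, and their log2 fold changes were -0.57 and 0.17 once a trend on GC content and length, described below, was taken out.

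Accessory subunits of the N module gave 2 of the named extremes. Ndufa12, a subunit of the hydrophilic arm, had normalized counts of 895, 728 and 820 (WT) and 1266 and 1780 (KO). KO 3 was highest and KO 2 lay between it and the WT libraries, with no overlap (log2 fold change 0.89 ± 0.22, limma adjusted p = 0.0818; DESeq2 adjusted p = 0.00608). Ndufs4, which holds the N module in place, had normalized counts of 1265, 748 and 1151 (WT) and 1198 and 488 (KO). KO 2 was inside the WT range and KO 3 below it, so that the KO libraries disagreed (log2 fold change -0.43 ± 0.39, limma adjusted p = 0.489). Among all 10 N module genes, core and accessory, the median log2 fold change was 0.60, and both KO values were above all WT values in 7 (23.9% of all genes). In the accessory part of the Q module, Ndufa9, an accessory subunit that joins the arms, had normalized counts of 2997, 2382 and 3186 (WT) and 3097 and 1824 (KO). KO 2 lay within the WT range and KO 3 below it (log2 fold change -0.25 ± 0.25, limma adjusted p = 0.533).

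The membrane arm was represented by 19 accessory genes, none of which had both KO values below all WT values. The 8 genes of its proximal part, next to the hydrophilic arm, had a median log2 fold change of 0.59, with both KO values above all WT values in 6 (23.9% of all genes). Among them Ndufc1 had normalized counts of 846, 558 and 810 (WT) and 1358 and 1276 (KO). The KO libraries were close together and above all WT libraries (log2 fold change 0.86 ± 0.24, limma adjusted p = 0.0884; DESeq2 adjusted p = 0.0169). The 11 genes of the distal part had a median of 0.34 (0.62 in KO 2 and 0.08 in KO 3, measured from the WT mean). Both KO values were above all WT values in 4 (23.9% of all genes), while KO 2 was above all WT values in all 11 (32.8% of all genes). Among them Ndufb2 had normalized counts of 1155, 899 and 1027 (WT) and 1811 and 1964 (KO). Both KO values were clear of the WT range, with KO 3 slightly higher (log2 fold change 0.88 ± 0.19, limma adjusted p = 0.0815; DESeq2 adjusted p = 0.00172). Ndufb3 had normalized counts of 1181, 894 and 1133 (WT) and 1338 and 652 (KO). KO 2 was above and KO 3 below all WT libraries, which left a difference near 0 with a wide error (log2 fold change -0.18 ± 0.31, limma adjusted p = 0.718). Ndufb4 had normalized counts of 155, 82.4 and 112 (WT) and 155 and 56.2 (KO), with KO 2 level with WT 1 and KO 3 below all WT libraries, and its reads are uncertain, since near-identical copies of this gene (Ndufb4b and Ndufb4c) can share them (log2 fold change -0.27 ± 0.52, limma adjusted p = 0.760).

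The remaining subunit genes stand apart by function. Ndufab1 (chromosome 7, 122085403 to 122101886, minus strand) encodes the acyl carrier protein of mitochondrial fatty acid synthesis and is also bound to complex I. It had normalized counts of 741, 557 and 746 (WT) and 1254 and 1737 (KO). Its KO values were clear of the WT range and KO 3 was highest (log2 fold change 1.13 ± 0.24, limma adjusted p = 0.0815; DESeq2 adjusted p = 0.00113). Ndufa4 was named as a complex I subunit and is now known as a subunit of complex IV. It had normalized counts of 3690, 1983 and 2739 (WT) and 3872 and 1721 (KO), so that KO 2 was just above and KO 3 below all WT libraries (log2 fold change -0.07 ± 0.36, limma adjusted p = 0.909). Its related gene Ndufa4l2 failed the filter on low values (10 or more in 2 or more libraries). Its values were 1.67, 5.21 and 1.71 in WT and 7.20 and 12.15 in KO. These were 2, 6 and 2 reads in WT and 7 and 8 in KO, where 3 reads or fewer are taken as the floor, so no fold change is given.

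The other subunits called by DESeq2 are given for that reason, after their values were seen. Ndufa13, also known as GRIM-19, is a proximal membrane subunit and had normalized counts of 1564, 1456 and 1576 (WT) and 2691 and 2589 (KO). Its groups lay far apart and were each narrow (log2 fold change 0.79 ± 0.17, limma adjusted p = 0.0815; DESeq2 adjusted p = 0.000672). Ndufa8, another proximal subunit, had normalized counts of 2200, 2053 and 2195 (WT) and 3508 and 3151 (KO). It showed the same clear gap (log2 fold change 0.63 ± 0.17, limma adjusted p = 0.0842; DESeq2 adjusted p = 0.00687). Ndufa6, an N module accessory subunit whose partner is the acyl carrier protein Ndufab1, had normalized counts of 1194, 785 and 1011 (WT) and 1924 and 1494 (KO). KO 2 was highest and both KO values lay above the WT range (log2 fold change 0.79 ± 0.24, limma adjusted p = 0.0954; DESeq2 adjusted p = 0.0273). Ndufs6, which binds zinc, had normalized counts of 1355, 1165 and 1225 (WT) and 2271 and 1631 (KO), and the groups did not overlap (log2 fold change 0.63 ± 0.21, limma adjusted p = 0.109; DESeq2 adjusted p = 0.0376). Ndufa2, of the N module, had normalized counts of 1552, 1184 and 1428 (WT) and 2356 and 1868 (KO), again with no overlap (log2 fold change 0.60 ± 0.21, limma adjusted p = 0.114; DESeq2 adjusted p = 0.0479). The direction of these 5 genes was the same in all 23 settings, but with the length and GC trend described below removed, Ndufa13 was at 0.067, Ndufs6 at 0.31, Ndufa8 at 0.38, Ndufa2 at 0.57 and Ndufa6 at 0.61. Both KO values were also above all WT values for Ndufa7, Ndufa10, Ndufa11, Ndufb6, Ndufb7, Ndufc2, Ndufs5 and Ndufv3. For Ndufa1, Ndufa3, Ndufa5, Ndufb5, Ndufb10 and Ndufb11, KO 2 was above and KO 3 within the WT range, with log2 fold changes from 0.17 (Ndufa1) to 0.38 (Ndufa3). None of these genes was called by limma, edgeR or DESeq2 on all 5 libraries.

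**Figure D2:**
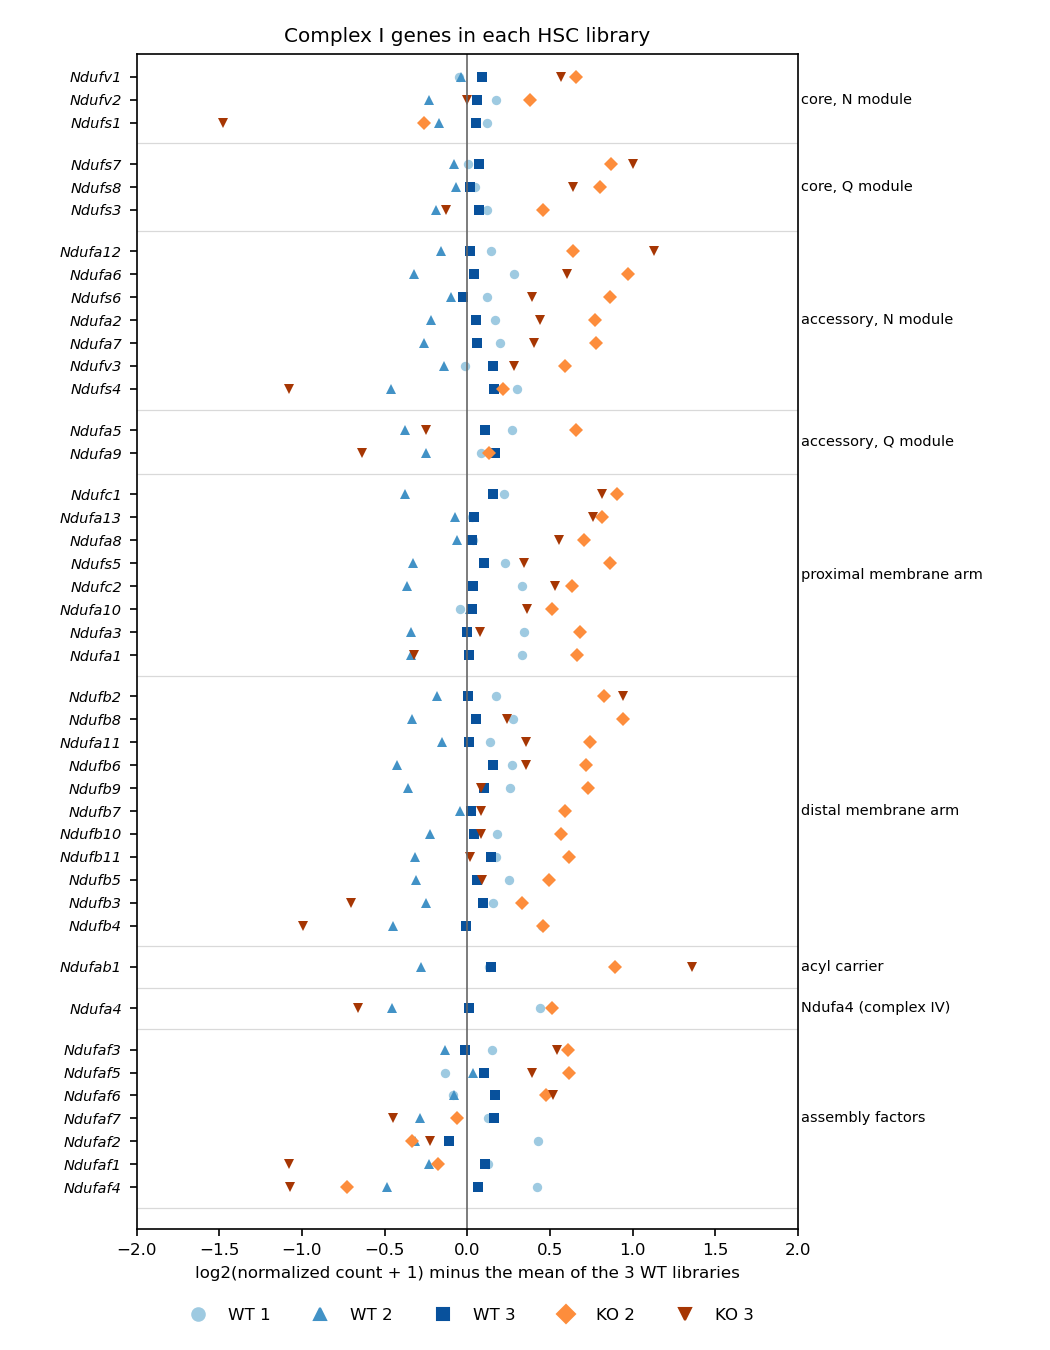
Tested complex I genes as rows, grouped by place in the enzyme, with 1 symbol per library at its log2(normalized count + 1) minus the mean of the 3 WT libraries. KO 2 (diamonds) is to the right of all WT symbols in most subunit rows, while KO 3 (downward triangles) ranges from -1.48 for Ndufs1 to 1.36 for Ndufab1.

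Per length, the transcripts of the 37 tested subunits covered a wide range. On the scale of mean normalized counts per kb of principal transcript over the 5 libraries, Ndufs7 (5301), Ndufb8 (4938) and Ndufb9 (4662) were highest, and Ndufb4 (116), Ndufs4 (571) and Ndufs5 (695) lowest. Ndufb8 and Ndufb9 are distal membrane subunits and Ndufs5 a proximal one. In WT libraries alone Ndufa4 led with 4597, ahead of Ndufb9 (4106), Ndufb8 (4078) and Ndufs7 (3884), while in KO libraries Ndufs7 led with 7426. Of the lowest, Ndufs4 was at 621 in WT libraries alone, above Ndufab1 (481) and Ndufc1 (591). Ndufb8 had normalized counts of 3315, 2171 and 2833 (WT) and 5248 and 3223 (KO), so KO 2 stood alone at the top and KO 3 was within the WT range (log2 fold change 0.59 ± 0.26, limma adjusted p = 0.182). Ndufb9 showed the same arrangement, with normalized counts of 3401, 2221 and 3051 (WT) and 4726 and 3012 (KO) (log2 fold change 0.41 ± 0.26, limma adjusted p = 0.323). Ndufs5 had normalized counts of 349, 237 and 320 (WT) and 542 and 378 (KO), and both KO values were above the WT range, KO 3 only slightly (log2 fold change 0.60 ± 0.30, limma adjusted p = 0.221).

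Assembly factors help build complex I and are not part of the finished enzyme. Among the 7, both KO values lay above all WT values in 3 (23.9% of all genes), below in 1 (23.2%), and 1 KO value lay within the WT range in the other 3. Ndufaf3 and Ndufaf4 bind each other and act on the Q module. Ndufaf3 had normalized counts of 638, 523 and 570 (WT) and 879 and 837 (KO), with both KO libraries above (log2 fold change 0.58 ± 0.21, limma adjusted p = 0.130). Ndufaf4 (chromosome 4, 24898083 to 24905001, plus strand) had normalized counts of 1062, 567 and 830 (WT) and 479 and 377 (KO). Both KO libraries were below all WT libraries (log2 fold change -0.90 ± 0.30, limma adjusted p = 0.110), and by DESeq2 it was the only assembly factor called, lower in KO (adjusted p = 0.0339; 9.25% of all genes were called lower). With the length and GC trend described below removed, its log2 fold change was -0.07. DESeq2 kept that call without WT 2 or without KO 2 and lost it without WT 1, WT 3 or KO 3, and without KO 2 it also called Ndufaf1 lower. The ratio of Ndufaf4 to Ndufaf3 within a library, chosen after its values were seen, was 1.67, 1.08 and 1.46 in the WT libraries and 0.545 and 0.450 in KO 2 and KO 3. Their GC contents were 39.5% and 56.0%, and with that trend removed the log2 fold change of Ndufaf3 was 0.18.

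The other assembly factors did not share a direction. Ndufaf5 hydroxylates Ndufs7, and had normalized counts of 168, 189 and 198 (WT) and 284 and 243 (KO). The KO values were above the WT range (log2 fold change 0.51 ± 0.29, limma adjusted p = 0.289). Ndufaf7, a methyltransferase that acts on the core, had normalized counts of 804, 603 and 824 (WT) and 706 and 539 (KO). KO 3 was below all WT libraries and KO 2 within them (log2 fold change -0.25 ± 0.25, limma adjusted p = 0.517). Ndufaf6, which acts in early assembly, had normalized counts of 387, 388 and 460 (WT) and 571 and 588 (KO). Both KO values were above the WT range and close to each other (log2 fold change 0.50 ± 0.23, limma adjusted p = 0.200). Ndufaf1 works on the membrane arm, and had normalized counts of 748, 583 and 737 (WT) and 606 and 323 (KO). KO 3 was far below the WT range and KO 2 within it (log2 fold change -0.63 ± 0.30, limma adjusted p = 0.214). Ndufaf2, a paralog of Ndufa12 that acts late in assembly, had normalized counts of 435, 260 and 300 (WT) and 256 and 276 (KO). The KO values lay at the low end of the WT values, KO 2 just outside them (log2 fold change -0.28 ± 0.31, limma adjusted p = 0.571). By limma 0 of the 7 were called, with Ndufaf3 higher (13.3% of all genes) and Ndufaf4 lower (14.5%) at an unadjusted p under 0.05. edgeR called 0 and had 2 at an unadjusted p under 0.05 (27.2% of all genes), a share near that of all genes.

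The KO libraries differed in how widely the subunits were spread. In KO 2 the subunits lay at a median of 0.66 above the WT mean (log2), and 34 of 37 were above all WT values (32.8% of all genes tested), with only Ndufs1 below them (30.9% of all genes). In KO 3 the median was 0.34, with 21 of 37 above all WT values (40.0% of all genes) and 6 below them (38.3% of all genes). Those 6 were Ndufa4, Ndufa9, Ndufb3, Ndufb4, Ndufs1 and Ndufs4. The 21 subunits above WT in KO 3 were also above WT in KO 2, which shares the WT libraries. In 33 of 37 subunits KO 2 was higher than KO 3, by a median of 0.39, while over all genes it was higher in 6863 of 13661. The 4 exceptions were Ndufa12, Ndufab1, Ndufb2 and Ndufs7. The largest gaps were those of Ndufb4, Ndufs4 and Ndufs1, with -1.45, -1.29 and -1.22 for KO 3 minus KO 2.

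**Figure D3:**
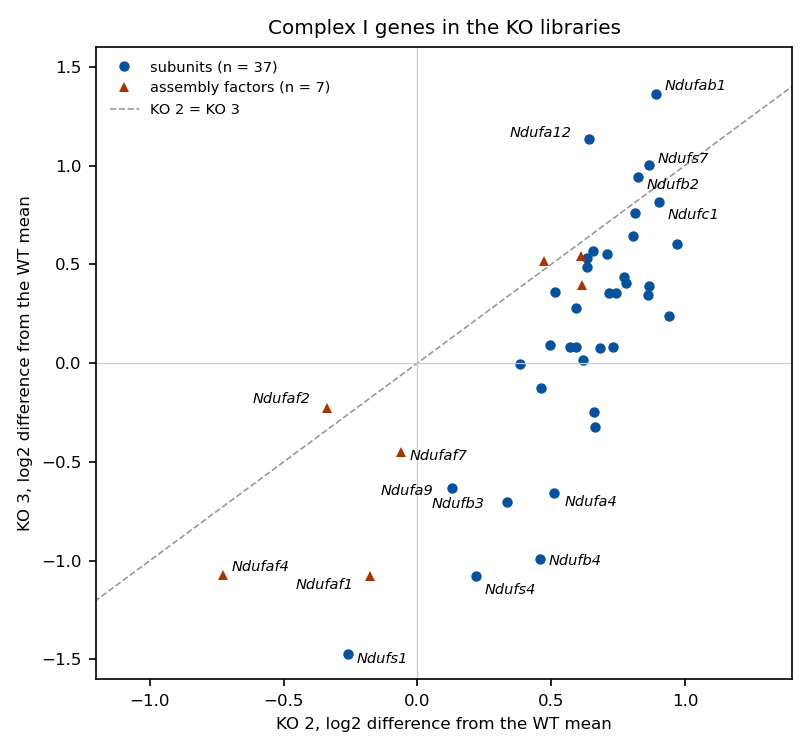
Log2 difference from the WT mean in KO 2 (horizontal) and KO 3 (vertical) for 37 subunits (circles) and 7 assembly factors (triangles), with the dashed line where both are equal. Both axes share the WT libraries. Circles lie mostly below the line, 4 lie above it, and Ndufs1 is at the lower left with -0.26 and -1.48.

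Subunit genes also differed together among WT libraries. WT 2 was the lowest of the 3 WT libraries in 34 of 37 subunits (32.9% of all genes). Set against the other WT libraries, WT 1 had a subunit median of 0.26, WT 2 one of -0.37 and WT 3 one of 0.08, while the median over all genes was 0.02 in each. Measured from the mean of all 3 WT libraries, the subunit median was -0.25 in WT 2, 0.34 in KO 3 and 0.66 in KO 2. Without WT 2 the median log2 fold change of the subunits was 0.40. Stromal genes (Cxcl12, Lepr, Col1a1, Col1a2 and Col3a1) took 0.00905% of reads in WT 2 against 0.000611% to 0.00110% elsewhere, 4 of the 5 were highest there, and their part in the low subunit values of WT 2 was not tested.

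**Figure D4:**
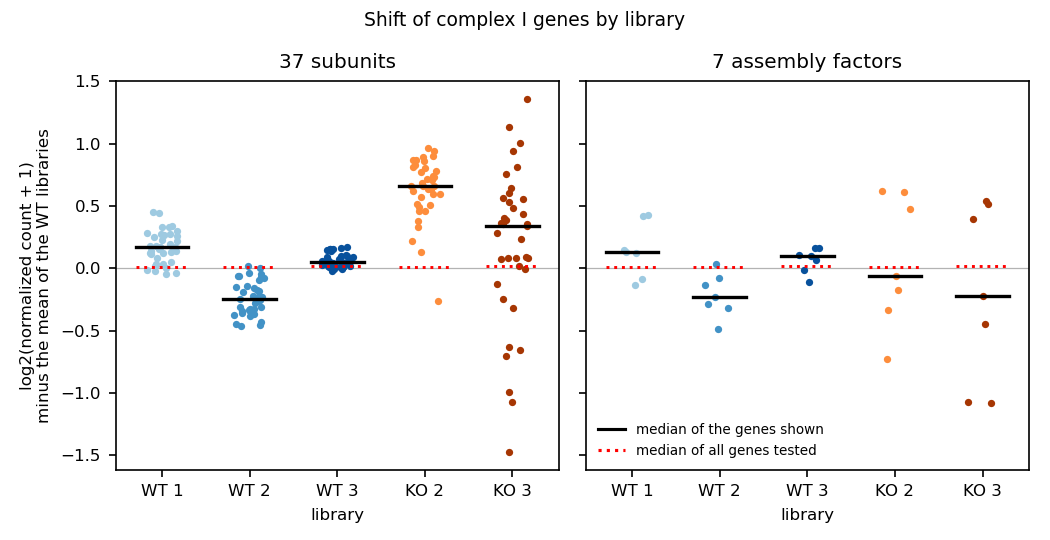
Log2(normalized count + 1) minus the WT mean for 37 subunits (left) and 7 assembly factors (right) in each library, with 1 point per gene, black lines at their medians and red dotted lines at the median of all genes tested. Subunit medians are 0.17, -0.25 and 0.05 in WT 1, WT 2 and WT 3, 0.66 in KO 2 and 0.34 in KO 3.

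Across all genes, fold changes tracked base composition. The Spearman correlation between GC content of the transcript and log2 fold change was 0.62 over 13015 genes, which share the 5 libraries, and 0.44 over the 37 subunits, whose median GC content was 52.5%. With all genes split by GC content into 10 bins of equal size, the highest bin had a median log2 fold change of 0.75 and the lowest one of -0.79. In their own bin, 32 of 37 subunits were above the median of all genes, and the median distance over the 37 was 0.27. Ndufab1 and Ndufc1 stood high although their GC contents were 45.3% and 44.1%, while Ndufs7, at 60.7%, had a log2 fold change of 0.93 beside the 0.75 of its bin. Once each library had been freed of a linear trend on length and GC content of transcripts, the subunit median was 0.29, with 32 of 37 above 0. Of all genes, 6372 of 13015 were above 0. Both KO values then lay above all WT values in 16 subunits and below in 0, and the share of all genes doing so was not counted on that scale. By limma 14 subunits were at an unadjusted p under 0.05 (16.0% of all genes) and 0 were called (smallest adjusted p = 0.134). On that scale the log2 fold change was 1.55 for Ndufab1, 1.37 for Ndufc1, 0.84 for Ndufa12 and 0.66 for Ndufb2 (1.36 with its longest transcript). It was 0.21 for both Ndufs7 and Ndufs8 (0.28 and 0.42 with the longest transcripts) and 0.17 for Ndufv1. The assembly factors had a median of 0.02 (0.17 with the longest transcripts). Ndufs1 was still low, at -0.57, while Ndufs4 (0.16), Ndufb3 (0.28) and Ndufa4 (0.47) turned to above 0, Ndufs3 turned to -0.048, and Ndufaf4, whose GC content was 39.5%, was at -0.07. Whether base composition acted on the libraries was not tested.

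**Figure D5:**
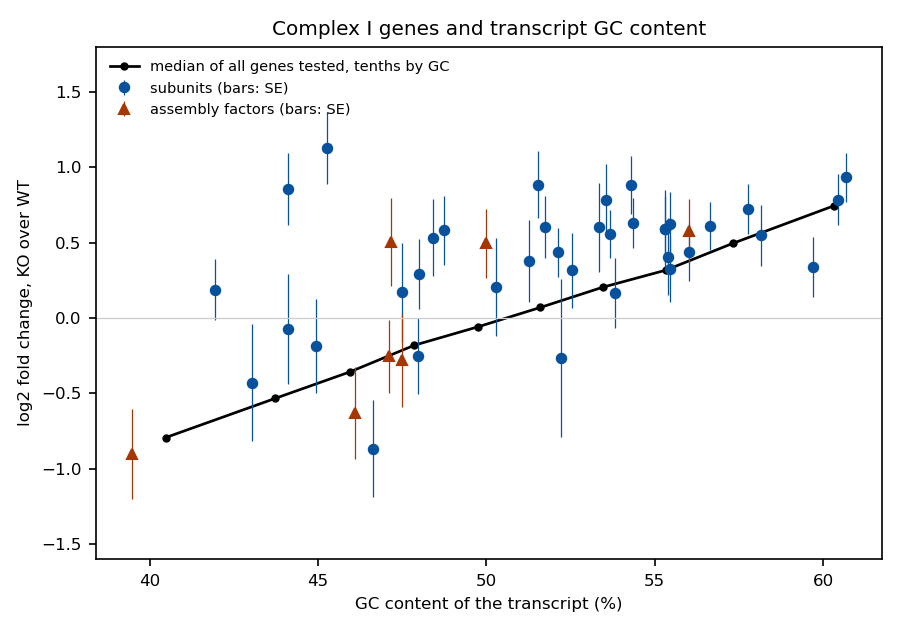
Log2 fold change of KO over WT (vertical, bars are SE) against GC content of the transcript in percent (horizontal) for 37 subunits and 7 assembly factors. The black line joins the medians of all genes tested in 10 bins by GC content, rising from -0.79 to 0.75, and 32 of 37 subunits lie above the median of their bin.

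Other genes of oxidative phosphorylation were read from lists of subunits of complexes II to V, chosen by name. All 38 were tested, with a median log2 fold change of 0.31. Measured from the WT mean, the median was 0.59 in KO 2 and 0.11 in KO 3. KO 2 was above all WT values in 33 (32.8% of all genes) and below in 0 (30.9%). KO 3 was above all WT values in 19 (40.0% of all genes) and below in 11 (38.3%). Both KO values were above all WT values in 18 (23.9% of all genes) and below in 0 (23.2%). limma called 0, with 15 higher (13.3% of all genes) and 0 lower (14.5%) at an unadjusted p under 0.05, edgeR called 0, with 15 at that limit (27.2%), and DESeq2 called 10 higher (9.02%) and 0 lower (9.25%). By complex, the medians were 0.14 for complex II (4 genes), 0.51 for complex III (9), 0.39 for complex IV (10) and 0.27 for ATP synthase (15). Measured from the WT mean and in the same order, they were 0.34, 0.72, 0.67 and 0.39 in KO 2 and -0.02, 0.29, 0.12 and 0.09 in KO 3. These lists showed the same low WT 2 values, with WT 2 lowest of the WT libraries in 36 of 38. The difference between complex I and the other complexes was not tested.

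Further assembly factors without the Ndufaf name, such as Ecsit and Acad9, gave 12 tested genes with a median of 0.05, 3 with both KO values above and 2 below all WT values (23.9% and 23.2% of all genes). Of these, limma called 0 and had 2 higher at an unadjusted p under 0.05 (13.3% of all genes), edgeR called 0 and had 2 at that limit (27.2%), and DESeq2 called 0. Regulators of mitochondrial biogenesis gave 15 tested genes, 4 with both KO values above and 1 below all WT values (23.9% and 23.2% of all genes). Their median was 0.07 (-0.02 in KO 2 and 0.26 in KO 3, measured from the WT mean). limma and edgeR called 0 of them and each had 3 at an unadjusted p under 0.05 (by limma all higher, against 13.3% of all genes, and by edgeR against 27.2%), while DESeq2 called 3 higher (9.02% of all genes). These were Esrra, a nuclear receptor that drives respiratory genes (DESeq2 adjusted p = 0.0127), Polrmt, the mitochondrial RNA polymerase (0.0146), and Ppargc1b, a coactivator (0.0248). Esrra had normalized counts of 519, 670 and 735 (WT) and 1219 and 1069 (KO), so its groups did not overlap. The GC contents of Esrra, Polrmt and Ppargc1b were 61.8%, 60.9% and 57.8%, in GC bins whose median log2 fold change over all genes was 0.50 to 0.75. Of the factors whose motifs were searched above, Nrf1, Gabpa and Yy1 had limma adjusted p-values of 0.840, 0.973 and 0.415. Yy1 had normalized counts of 427, 390 and 361 (WT) and 377 and 712 (KO), so that KO 3 was above and KO 2 within the WT range.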

How the data were processed

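RNA-seq of 5 sorted HSC libraries was read from a table of gene values that the authors deposited on a normalized signal scale, in which gene counts were divided by a size factor for each library. The submitters' processing notes name STAR, featureCounts, DESeq2 and mm10, and versions, annotation and strand setting are not given in the sources used here. Dividing each column by the value of 1 read gave back whole reads for 100% of values (tolerance 0.01), and these recovered counts, from the deposited signal, gave depths of 12539599 to 22779536 reads and were used for edgeR and DESeq2. A further table of the authors' own fold changes and p-values was not used.

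The main test was limma (3.58.1, R 4.3.3) on log2(value + 1) over the 13661 genes with a value of 10 or more in 2 or more libraries, KO against WT, two-sided, with Benjamini-Hochberg adjustment over all of them. edgeR (4.0.16), DESeq2 (1.42.0), limma-voom, a pseudocount of 10, no filter, 3 other scalings, array weights, a replicate block, each library left out and removal of a linear trend on length and GC content of transcripts were alternatives. The scripts were tested on simulated data. Length and GC content came from GENCODE M21 (GRCm38), for the principal protein-coding transcript by APPRIS, then the best support level, then the shortest, and were had for 13015 of the 13661 genes and all 44 tested members. Up to 3 reads were taken as the floor.

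Genes named with values were Syncrip, the core subunits, every Ndufaf gene, the 5 highest and 5 lowest log2 fold changes among tested subunits, the 3 highest and 3 lowest subunits per kb, Ndufa4, Ndufa4l2 and subunits that failed the filter. Subunits called by DESeq2 and 6 biogenesis genes (Esrra, Polrmt, Ppargc1b, Nrf1, Gabpa and Yy1) were added after their values were seen. Of these genes, 1 is not reported by itself here, though it stays in every count over members. Members, lists and tests were chosen with earlier results of these data known. Titles share the replicate numbers 2 and 3 between groups. Deviations from the group means of same-numbered libraries had correlations of -0.059 (replicate 2) and -0.183 (replicate 3) over genes. With only 2 KO libraries their deviations mirror each other, so these values cannot decide whether same-numbered libraries were paired.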

Additional observations from a re-analysis of the deposited data

How the results depend on the processing

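Of 44 tested members, 31 kept the direction of their log2 fold change in all 23 settings. limma called 0 subunits under every other scaling, pseudocount, filter and weighting, as did limma-voom and edgeR. DESeq2 called 13 subunits and 1 assembly factor. With 1 library left out DESeq2, in fits chosen after seeing the data, called 8, 5, 2, 13 and 8 subunits and 0, 1, 0, 2 and 0 assembly factors without WT 1, WT 2, WT 3, KO 2 and KO 3, with a subunit median of 0.32 without KO 2. limma called 0 to 7 subunits (7 without KO 2, where it called 3024 genes in all) and 0 to 1 assembly factors. In that limma fit without KO 2, neither the subunits nor the assembly factors were called at a larger share than all genes. Most of its subunit calls were higher in KO, and it rests on 1 KO library. With 1 WT library left out, both KO values lay above all WT values in 21 to 25 subunits and below in 1. They lay below all WT values in 1 to 4 assembly factors (4 without WT 2). The share of all genes doing so was not counted for these fits, and groups separate more easily against fewer WT libraries. With 1 KO library left out, the single KO value lay above all WT values in 34 subunits for KO 2 (32.8% of all genes) or 21 for KO 3 (40.0%). It lay below them in 1 or 6 subunits and 2 or 3 assembly factors (30.9% or 38.3% of all genes). In limma fits with any 1 library left out the log2 fold change ranged from -0.0037 to 0.38 for Ndufv2, -0.13 to 0.46 for Ndufs3, -1.08 to 0.22 for Ndufs4, -0.99 to 0.46 for Ndufb4, -0.64 to 0.13 for Ndufa9, -0.70 to 0.33 for Ndufb3 and -0.66 to 0.51 for Ndufa4, each lowest without KO 2 and highest without KO 3, and Ndufa4 was also above 0 without WT 1. With DESeq2 it was -0.018 for Ndufv2 and -0.14 for Ndufs3 without KO 2, and 0.18 for Ndufs4, 0.41 for Ndufb4, 0.12 for Ndufa9, 0.32 for Ndufb3 and 0.47 for Ndufa4 without KO 3. Without WT 1 it was 0.12 for Ndufb4 and 0.24 for Ndufa4. With the length and GC trend removed, the subunit median was 0.29 and that of the assembly factors 0.021. Both KO values lay above all WT values in 16 subunits and 2 assembly factors and below in 0 subunits and 0 assembly factors. The share of all genes doing so was not counted on that scale. Values were then -0.048 for Ndufs3, 0.021 for Ndufaf7, 0.16 for Ndufs4, 0.28 for Ndufb3 and 0.47 for Ndufa4. With the longest transcript, a choice made after seeing the data, they were -0.060, 0.18, 0.13, 0.27 and 0.45, and the assembly factor median was 0.17. With the replicate number as a block, which in effect drops WT 1, the subunit median was 0.55, 0 subunits were called and Ndufa4 was at 0.15, and no other direction changed. Ndufa1, Ndufa5, Ndufb7, Ndufb10 and Ndufb11 also turned direction in 1 to 3 settings each. With the length and GC trend removed, the value of Ndufb2 was 0.66 with the principal and 1.36 with the longest transcript. That of Ndufs8 was 0.21 and 0.42. Causes were not tested. The 2 KO libraries limit every test, and the spread in a fit with 1 KO library is that of WT alone.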
